A study of Mus musculus with 265 samples.

Results

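Chromatin accessibility at genes of the BCL2 family was described in single mouse pre-B cells. This family decides whether a cell lives or dies by mitochondrial apoptosis. The cells were taken before and after induced nuclear entry of a fusion protein of the transcription factor Ikaros. The genes were the anti-apoptotic Bcl2, Bcl2l1, Mcl1 and Bcl2a1b, the BH3-only genes Bcl2l11, Bid, Bbc3 and Bmf, and the effectors Bax and Bak1. A region of the deposited matrix was assigned to a gene where that gene had the nearest protein-coding start (GENCODE vM21) to the midpoint of the region, within 50 kb. By this rule 25 of the 20103 regions belonged to 9 of the 10 genes, 7 to anti-apoptotic and 18 to pro-apoptotic genes. The pro-apoptotic regions were 12 of BH3-only genes and 6 of effectors, and no region of the matrix was assigned to Bcl2a1b. Each region is named here by its gene and by the distance in bp of its midpoint from the start, negative where it lies upstream.

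The B3 line grows as pre-B cells of the mouse, and all cells used here carried inducible Ikaros fused to ERt2. This hormone-binding domain keeps the fusion protein out of the nucleus until 4-hydroxytamoxifen is added. The paper describes induction as an increase of Ikaros in the nucleus and uses Ikaros binding data (ChIP-seq) from both time-points. Untreated cells are therefore not taken here to lack nuclear Ikaros. The 0-hour group was untreated, and the 24-hour group received 20 mM of 4-hydroxytamoxifen, the concentration as labelled, with a second dose at about 12 hours. Each time-point was captured in 2 runs of the Fluidigm C1, a microfluidic device that isolates single cells, called here run 1 and run 2 (0 hours) and run 3 and run 4 (24 hours). The matrix holds 48, 47, 60 and 72 cells of runs 1 to 4, while the labels list 48, 63, 75 and 73. No group without the fusion protein and no group of parental cells given tamoxifen was analysed here, and a single line does not stand for separate animals. Nothing states that the runs came from separate cultures, so p-values measure the spread between these runs, which may be technical.

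Survival of a lymphocyte depends on the balance between BCL2 family proteins at the mitochondrial surface. BCL2, BCL-XL (the product of Bcl2l1) and MCL1 hold the effectors BAX and BAK in check. BH3-only proteins such as BIM (Bcl2l11), BID, PUMA (Bbc3) and BMF bind the anti-apoptotic proteins or the effectors, and freed BAX and BAK permeabilize the outer membrane and release cytochrome c. In the B lineage, developing cells pass stages at which they live or die by this balance, and BIM is known for its part in removing B cells.

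The runs differed in depth, with 164357, 92639, 122586 and 142611 counts in runs 1 to 4 and a median per cell from 1676 to 2898 counts. Run 1 was the deepest per cell, so for the regions the results turn on the share of cells is set beside the share expected after each cell was thinned to 837 counts, the 10th percentile, which left 204 of 227 cells. The cells kept were 48, 46, 47 and 63 of runs 1 to 4, so nearly all shallower cells left out were 24-hour cells, and thinned shares compare the deeper 24-hour cells with nearly all 0-hour cells. A lower share can come from fewer cells with an open region or from fewer fragments recovered per cell, and these cannot be told apart. Regions within 1 kb of a start took 51.0% and 48.5% of all counts at 0 hours and 58.3% and 66.4% at 24 hours, a shift of the whole matrix that ran beside the changes at member genes. Of the pre-B marker genes Cd79a, Cd79b, Pax5, Ebf1, Vpreb1, Igll1, Rag1, Rag2 and Blnk, 8 of 9 had a region, all but Rag1, and their regions summed to 1390 to 1840 CPM, the count scaled to a common total of each run. Of 5 T cell, 5 myeloid and 4 erythroid markers, 1 of each list had a region (Cd5, Lyz2 and Klf1), with 0 to 12 counts in any run.

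The 3 regions within 1 kb of a start that were detected in the most cells, and the 3 beyond 1 kb with the lowest fitted change, are shown by sequence as examples of both positions. They were chosen by these values, so the contrast between the 2 sets is fixed by the choice. Over all members 8 of 12 regions within 1 kb (66.7%) and 7 of 13 beyond it (53.8%) had a log2 change above 0, against 64.6% and 35.2% of all such regions. Sequences are from mm10, in the 5′ to 3′ direction of the gene they were assigned to, with the deposited bounds read as 1-based. Capitals mark GGGAA, the core of the Ikaros recognition sequence, on either strand, and the forkhead (FOXO) sequence GTAAACA. Bcl2l1 +339 is chr2:152831314-152831464, within an intron of Bcl2l1. Mcl1 -95 (chr3:95658618-95658768) and Bcl2l11 -235 (chr2:128125721-128125885) lie upstream of the start and overlap no annotated gene.
Bcl2l1 +339: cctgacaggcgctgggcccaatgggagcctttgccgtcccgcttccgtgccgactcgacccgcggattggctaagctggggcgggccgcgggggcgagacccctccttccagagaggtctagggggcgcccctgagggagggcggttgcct
Mcl1 -95: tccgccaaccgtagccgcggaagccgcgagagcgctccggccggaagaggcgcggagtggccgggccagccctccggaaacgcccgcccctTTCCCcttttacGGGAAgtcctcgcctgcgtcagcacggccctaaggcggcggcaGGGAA
Bcl2l11 -235: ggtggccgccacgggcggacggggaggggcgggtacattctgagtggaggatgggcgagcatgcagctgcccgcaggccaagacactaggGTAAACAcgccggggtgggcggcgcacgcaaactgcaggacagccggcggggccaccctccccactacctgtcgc

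Bcl2l1 +37005 is chr2:152794649-152794798 and lies in an intron of Bcl2l1. Bcl2l11 -31648 (chr2:128094332-128094449) lies within Acoxl, outside its exons, and Bid +1424 (chr6:120915360-120915498) lies in an intron of Bid. All 3 were detected in more cells at 0 hours, and the last 2 had 3 counts or fewer at 24 hours.
Bcl2l1 +37005: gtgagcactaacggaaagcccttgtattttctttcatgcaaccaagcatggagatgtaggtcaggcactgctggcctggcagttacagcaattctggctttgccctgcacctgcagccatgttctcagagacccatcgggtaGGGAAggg
Bcl2l11 -31648: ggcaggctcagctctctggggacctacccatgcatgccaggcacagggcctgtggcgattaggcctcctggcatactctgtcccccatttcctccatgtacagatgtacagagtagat
Bid +1424: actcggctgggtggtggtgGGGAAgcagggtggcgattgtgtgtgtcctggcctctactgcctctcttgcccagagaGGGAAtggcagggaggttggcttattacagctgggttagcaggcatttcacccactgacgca

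The Mcl1 -95 region holds 3 GGGAA matches and the Bid +1424 region 2, the Bcl2l1 +37005 region holds 1, and Bcl2l1 +339, Bcl2l11 -235 and Bcl2l11 -31648 hold none. Motifs were counted on both strands in windows of 150 bases around each of the 20103 midpoints. GGGAA occurred in 11 of the 25 member windows (44.0%) and in 39.2% of all windows, and the Bbc3 +282 window had the most among members, with 4. GGGCGG, the GC box, occurred in 8 of the 12 member windows within 1 kb of a start (66.7%) and in 55.2% of all such windows. GTAAACA occurred in 1 member window, that of Bcl2l11 -235 (4.0% of 25), and in 1.36% of all windows. The ETS sequence CCGGAAG occurred in 1, that of Mcl1 -95, against 9.34% of all windows. CAGGTG, an E-box, occurred in 3 member windows (12.0%), those of Bcl2l1 +37005, Bmf -4833 and Bmf +5291, and in 9.41% of all windows, while TGACGTCA occurred in none of the 25 and in 1.85% of all. A match is a run of letters and not a measured binding site. The median GC content was 68.7% over member windows within 1 kb of a start and 65.3% over all such windows.

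Of the 25 member regions, 12 lay within 1 kb of a start and 13 beyond it. They were detected in 5 to 51 cells each, with a median of 10 cells, against a median of 13 over all regions, and 5 of 25 (20.0%) were detected in at least 10% of cells, as were 23.7% of all regions. No member region had a further copy in the genome at 90% identity over 80% of its length.

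**Figure D1:**
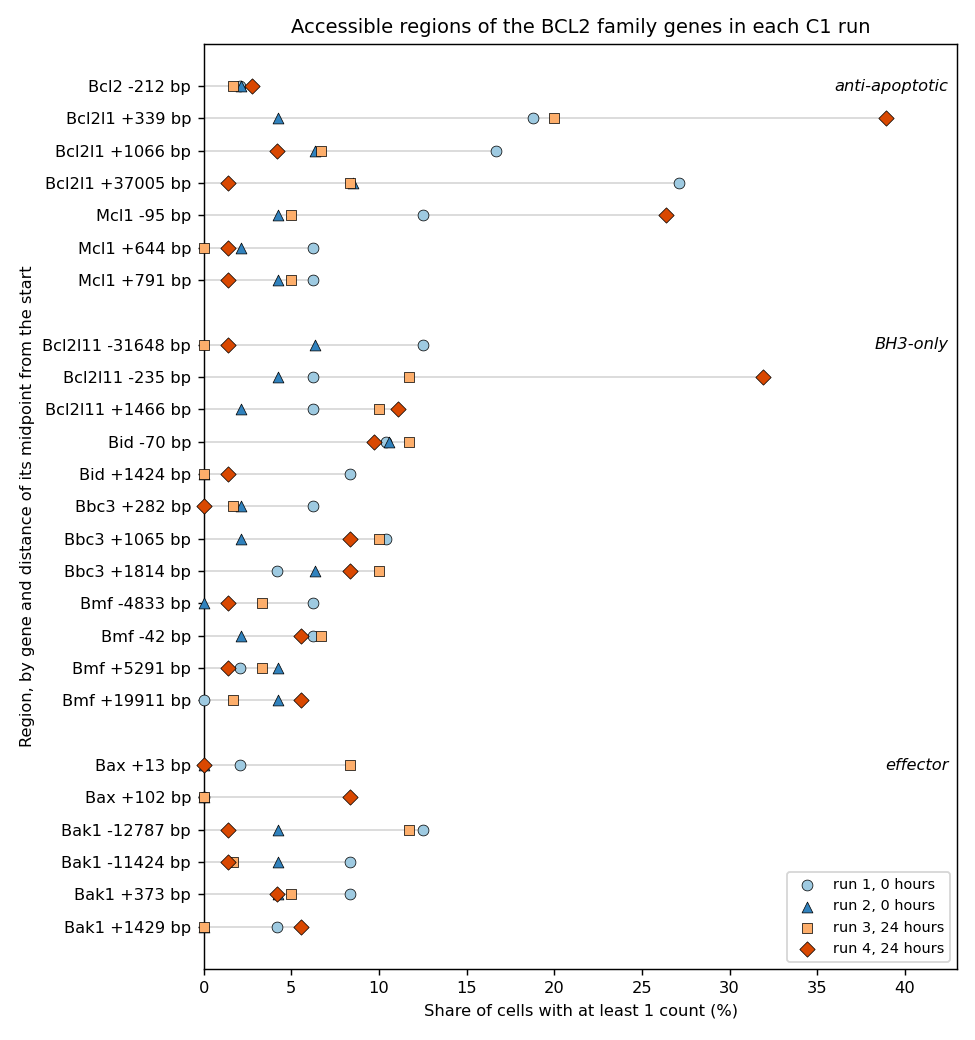
Share of cells with at least 1 count in each of the 25 member regions (horizontal axis, percent), with 1 point per C1 run and regions grouped by the role of their gene. In run 4 the regions Bcl2l1 +339, Bcl2l11 -235 and Mcl1 -95 reached 38.9%, 31.9% and 26.4%, above every other value of a member region in that run, and the other regions stayed at or below 11.1% there.

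The first question was whether anti-apoptotic genes gained or lost accessibility over the 24 hours. The region at the start of Bcl2l1 was detected in more cells at 24 hours, an intronic region far inside the same gene in fewer, and the region upstream of Mcl1 was high in run 4 only.

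Bcl2l1 +339 was detected in 9 of 48, 2 of 47, 12 of 60 and 28 of 72 cells of runs 1 to 4, which are 18.8%, 4.26%, 20.0% and 38.9%. The 95% Clopper-Pearson intervals were 8.95 to 32.6%, 0.520 to 14.5%, 10.8 to 32.3% and 27.6 to 51.1%; these and all other intervals cover counting error only. Both 24-hour runs were above both 0-hour runs, though run 3 exceeded run 1 by little, and thinned shares were 5.41%, 2.62%, 11.6% and 23.2%. The log2 change of the run sums was 2.31 (SE 0.61, n = 2 runs per time-point), with an adjusted p of 0.114 by edgeR's quasi-likelihood test over all regions, so it did not pass the threshold of 0.05. It was the member region detected in the most cells, 51 of 227.

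Bcl2l1 +37005 went the other way, with 13, 4, 5 and 1 cells of runs 1 to 4, or 27.1%, 8.51%, 8.33% and 1.39%. After thinning the shares were 11.2%, 4.74%, 4.65% and 0.573%. Runs 2 and 3 differed by 1 cell and did not separate the time-points beyond counting error. Its log2 change was -1.62 (SE 0.82, edgeR adjusted p = 0.421), and it ranged from -2.69 to -0.96 with each run left out. Bcl2l1 +1066, which lies in an exon and untranslated region, was detected in 8, 3, 4 and 3 cells, and its highest value was in the deepest run. Its thinned shares were 4.22%, 3.63%, 3.13% and 2.53%, so that after thinning both 0-hour runs were above both 24-hour runs by a small margin. Summed over the 3 regions, Bcl2l1 was at 253, 133, 229 and 398 TMM-normalized CPM, in which edgeR's TMM factors also enter the total, in runs 1 to 4. The summed log2 change was 0.65 (SE 0.42, edgeR adjusted p = 0.560).

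Mcl1 -95 was detected in 6, 2, 3 and 19 cells, or 12.5%, 4.26%, 5.0% and 26.4%. The time-points overlapped, since run 3 lay between both 0-hour runs and run 4 above them, and thinned shares kept this order at 4.32%, 1.10%, 1.71% and 13.9%. Its log2 change was 1.82 (SE 0.70, edgeR adjusted p = 0.274), and without run 4 it was 0.14. Mcl1 +644, which overlaps an exon, was detected in 3 and 1 cells at 0 hours and in 0 and 1 cells at 24 hours, where 0 of 60 cells allows a share of up to 5.0% by the limit of 3 counts and up to 5.96% by the Clopper-Pearson interval. The intronic Mcl1 +791 was detected in 3, 2, 3 and 1 cells. Mcl1 as a whole had a log2 change of 0.93 (SE 0.56, edgeR adjusted p = 0.525), which turned to -0.35 without run 4.

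Bcl2 had a single region, Bcl2 -212, of 45 bp and detected in 1, 1, 1 and 2 cells. A difference between the time-points was not detectable at this depth. Bcl2a1b, whose product A1 also restrains the effectors, had no region to compare.

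**Figure D2:**
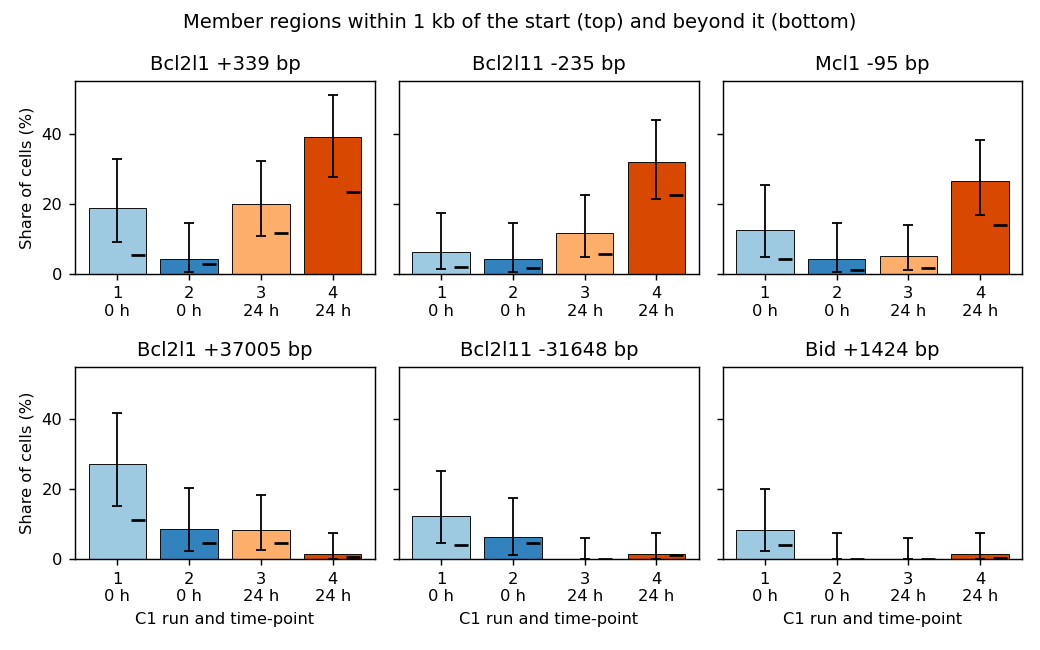
Share of cells (vertical axis, percent) in each C1 run (horizontal axis) for 3 member regions within 1 kb of a start, in the top row, and 3 beyond it, in the bottom row. Bars are shares, lines are 95% Clopper-Pearson intervals and short dashes are shares after thinning to 837 counts per cell. Bcl2l1 +339 reaches 38.9% in run 4, while Bcl2l1 +37005 is at 27.1% in run 1 and 1.39% in run 4.

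Among BH3-only genes, the region upstream of Bcl2l11 had the largest log2 change of any member region with more than 3 counts at both time-points. The fitted changes of its regions had both signs, as did those of Bcl2l1, and none passed the adjusted threshold. Bcl2l11 encodes BIM, which can bind every anti-apoptotic protein of the family.

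Bcl2l11 -235 was detected in 3 of 48, 2 of 47, 7 of 60 and 23 of 72 cells, or 6.25%, 4.26%, 11.7% and 31.9%. Intervals were 1.31 to 17.2%, 0.520 to 14.5%, 4.82 to 22.6% and 21.4 to 44.0%. Both 24-hour runs were above both 0-hour runs, with run 4 well above run 3, and thinned shares were 2.03%, 1.49%, 5.55% and 22.4%. The log2 change was 2.76 (SE 0.73, edgeR adjusted p = 0.114). Bcl2l11 +1466, which overlaps an exon, was detected in 3, 1, 6 and 8 cells, or 6.25%, 2.13%, 10.0% and 11.1%. The 24-hour runs were again the 2 higher ones, also after thinning (1.17%, 1.54%, 4.94% and 5.02%), with a log2 change of 1.63 (SE 0.94, edgeR adjusted p = 0.510).

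Bcl2l11 -31648 was detected in 6 and 3 cells at 0 hours (12.5% and 6.38%) and in 0 and 1 cells at 24 hours (0% and 1.39%). Its signal at 24 hours was 2 counts in all, too few for a fold change, and thinned shares of 4.00%, 4.77%, 0% and 1.29% kept the time-points apart. Summed over its 3 regions, Bcl2l11 was at 98.8, 99.4, 126 and 377 TMM-normalized CPM in runs 1 to 4. The summed log2 change was 1.35 (SE 0.50, edgeR adjusted p = 0.206), and without run 4 it was 0.31.

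Bid, whose product is cut by caspase 8 and carries the death receptor signal to mitochondria, had a region at its start that was detected in similar shares of cells in the 4 runs. Bid -70 was detected in 5, 5, 7 and 7 cells, or 10.4%, 10.6%, 11.7% and 9.72%. Corrected for depth the runs were further apart, with thinned shares of 2.27%, 5.47%, 7.61% and 5.15% in which the time-points overlapped. Bid +1424 was detected in 4 cells of run 1, none of runs 2 and 3 and 1 of run 4, and run 1 alone carried its 0-hour signal.

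Bbc3, which encodes PUMA, a target of p53, had 3 regions downstream of its start. Bbc3 +1814 was detected in 2, 3, 6 and 6 cells, with both 24-hour runs above both 0-hour runs (4.17%, 6.38%, 10.0% and 8.33%), but after thinning the groups overlapped (1.56%, 3.58%, 3.41% and 4.89%). Bbc3 +1065 was detected in 5, 1, 6 and 6 cells, with run 1 (10.4%) above both 24-hour runs (10.0% and 8.33%). Thinning went the other way here, since at 1.91%, 1.43%, 7.04% and 4.58% both 24-hour runs were above both 0-hour runs. The log2 change of Bbc3 +1065 was 1.48 (SE 0.92, edgeR adjusted p = 0.550), and it was 2.71 without run 1 and 0.99 without run 2. Bbc3 +282 went from 3 and 1 cells to 1 and 0 cells.

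Bmf, whose product is released from the cytoskeleton under stress, had 4 sparse regions. Bmf -42, at the start, was detected in 3, 1, 4 and 4 cells. Bmf -4833 was detected in 3, 0, 2 and 1 cells, Bmf +5291 in 1, 2, 2 and 1 cells and Bmf +19911 in 0, 2, 1 and 4 cells. In all 4 the unthinned shares of the time-points overlapped.

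The effectors had low signal. Bax was covered by 2 narrow regions at its start, Bax +13 (101 bp) and Bax +102 (24 bp), which also overlap the annotated gene Gm45808. Bax +13 was detected in 1, 0, 5 and 0 cells and Bax +102 in 0, 0, 0 and 6 cells, so that run 3 used the one and run 4 the other. With both counted as 1, Bax was detected in 1 of 95 cells at 0 hours (1.05%, interval 0.0266 to 5.73%) and in 11 of 132 at 24 hours (8.33%, interval 4.23 to 14.4%). No region of the matrix was detected in fewer than 5 cells, and each Bax region reached that number only through 1 of the 24-hour runs. Their higher values at 24 hours were therefore set by their presence in the matrix and are given as a description.

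Bak1 had 4 regions, a pair on each side of its start. Upstream, Bak1 -12787 was detected in 6, 2, 7 and 1 cells and Bak1 -11424 in 4, 2, 1 and 1 cells, the latter with both 0-hour runs above both 24-hour runs. With the nearest start taken over all protein-coding transcripts, neither upstream region was assigned to Bak1. Downstream, Bak1 +373 was detected in 4, 2, 3 and 3 cells and Bak1 +1429 in 2, 0, 0 and 4 cells. The last 2 also overlap Ggnbp1, and their signal cannot be told apart from that gene's.

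Levels between regions were compared per length, as TMM-normalized CPM per kb of region averaged over the 2 runs of a time-point. At 0 hours the highest level was that of Bcl2l1 +37005 (633), followed by Bcl2l1 +1066 (418) and Bcl2l11 -31648 (401). Bcl2l1 +339 was at 310 and Bcl2l11 -235 at 155. This order held for the means only, since Bcl2l1 +37005 was at 849 in run 1 and 418 in run 2, where Bid -70 (557), Bcl2 -212 (464) and Bcl2l11 -31648 (443) were higher. At 24 hours the order was headed by Bcl2l1 +339 (1690), Bcl2l11 -235 (1110), Bax +102 (1070, from 7 counts in 24 bp) and Mcl1 -95 (1030). The runs behind these 24-hour levels were far apart, at 0 and 2140 for Bax +102, 910 and 2480 for Bcl2l1 +339, 441 and 1780 for Bcl2l11 -235 and 321 and 1750 for Mcl1 -95, so the order among them did not exceed the spread between runs.

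Tested over the whole matrix, edgeR called 11 of 20103 regions (0.0547%) and 52 of 9900 genes (0.525%) at an adjusted p under 0.05. None of the 25 member regions and none of the 9 member genes was among them, and DESeq2 called 0 regions and 0 genes in all. At an unadjusted p under 0.05, 4 member regions were higher at 24 hours (Bcl2l1 +339, Mcl1 -95, Bcl2l11 -235 and Bax +102) and 0 were lower, against 5.11% of all regions higher and 7% lower. Bax +102 does not count as support, since it was in the matrix only through its 6 cells of run 4. DESeq2 gave the first 3 of them an unadjusted p under 0.05 too. All 4 lay within 1 kb of a start, where 7.68% of regions were higher at that level. Of the member genes, Bcl2l11 was higher at an unadjusted p under 0.05, and so was Bax, with the same limit as its regions, against 5.99% of all genes.

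Both 24-hour runs weighed on these values. Without run 4, the log2 changes of Bcl2l1 +339, Bcl2l11 -235 and Mcl1 -95 were 1.4, 1.43 and 0.14, with edgeR adjusted p of 0.503, 0.676 and 0.987. Without run 1, that of Bcl2l1 +339 was 3.58 and that of Mcl1 -95 was 2.88, with edgeR adjusted p of 0.275 and 0.540. Without run 3, Bcl2l1 +339, Bcl2l11 -235 and Mcl1 -95 were called higher, with edgeR adjusted p of 0.000664, 0.000288 and 0.00662 and log2 changes of 2.82, 3.41 and 2.53. The fit without run 3 called 3.96% of all regions and 5.34% of all genes in either direction. It called 2.27% of all regions higher, and of the member genes it called Bcl2l11, with 2.71% of all genes called higher. In that fit run 4 is the only 24-hour run, and its spread is assumed to be that of the 0-hour runs. Run 4 also had the highest share of counts within 1 kb of starts (66.4%), and the part of that shift in the result was not tested.

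By share of cells, 4 member regions had both 24-hour runs above both 0-hour runs, Bcl2l1 +339, Bcl2l11 -235, Bcl2l11 +1466 and Bbc3 +1814. Over all regions 8.59% did so. In the other direction 5 member regions had both 0-hour runs higher, Bcl2l1 +37005, Mcl1 +644, Bcl2l11 -31648, Bbc3 +282 and Bak1 -11424, against 33.7% of all regions. Of these, Mcl1 +644 and Bbc3 +282 had 4 cells at 0 hours and 1 at 24 hours. Bcl2l11 -31648 had 9 and 1, and Bak1 -11424 had 6 and 2. These regions reached the limit of 5 cells only through 0-hour cells, so their direction is given as a description. Among the higher regions, Bcl2l11 +1466 had 4 cells at 0 hours and 14 at 24 hours, with the same limit. After thinning the counts were 5 higher and 6 lower at 24 hours, with 17.4% and 26.5% of all regions. By TMM-normalized CPM they were 7 higher and 5 lower, with 19.3% and 25.7% of all regions. Of the 5 detected in at least 10% of cells, 2 were higher and 1 was lower by share of cells, with 11.7% and 23.7% of all such regions. Split by distance, 2 of 12 member regions within 1 kb were higher at 24 hours and 2 lower, against 11.9% and 21.1% of all such regions. Beyond 1 kb 2 of 13 were higher and 3 lower, against 6.04% and 43.5%.

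The median log2 change was 0.45 over the 25 member regions and -0.06 over all regions, and with Bax +102 at the lower bound that a floor of 3 counts at 0 hours gives the member median was still 0.45. Within 1 kb of a start the medians were 0.63 over 12 member regions and 0.33 over all 8786, and beyond 1 kb they were 0.15 over 13 and -0.54 over 11317. By role the median was -0.30 over the 7 anti-apoptotic, 0.51 over the 12 BH3-only and 0.60 over the 6 effector regions, all relative to a matrix whose near and distant regions moved in opposite directions. The effector, near-start and whole-member medians include Bax +13 (2.62) and Bax +102 (4.82), whose direction was set by their presence in the matrix. The Bak1 regions were at -1.34, 0.24, 0.45 and 0.76.

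**Figure D3:**
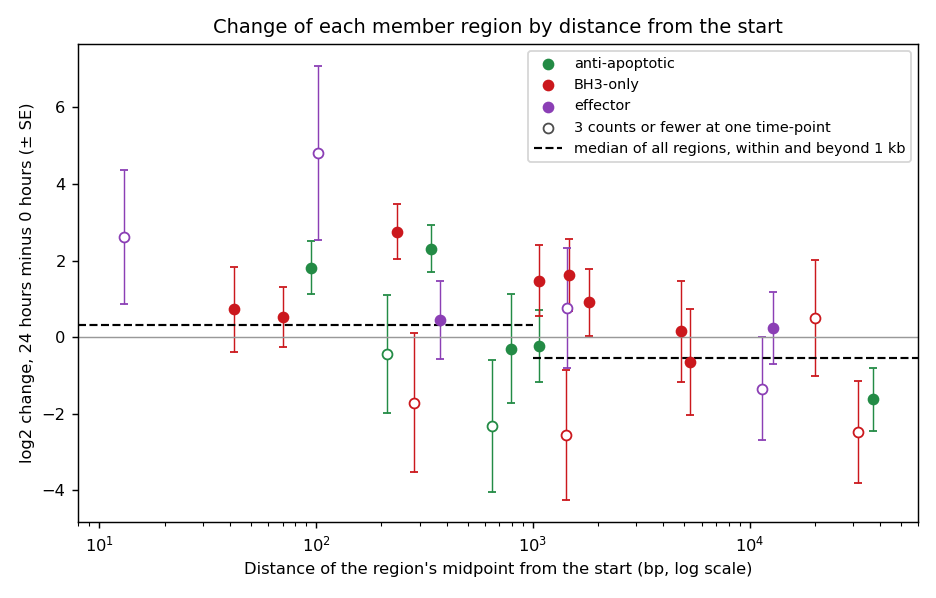
The log2 change of each member region, 24 hours minus 0 hours with its SE (vertical axis), against the distance of its midpoint from the start in bp (horizontal log axis), coloured by role. Open points are the 10 regions with 3 counts or fewer at a time-point, whose fitted change depends on the prior count. Dashed lines are the medians of all regions within 1 kb (0.33) and beyond it (-0.54), and the highest filled points are Bcl2l11 -235 at 2.76 and Bcl2l1 +339 at 2.31.

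The second question was whether the balance between anti- and pro-apoptotic genes moved. Anti-apoptotic regions held 60 of 138, 20 of 61, 39 of 123 and 97 of 213 member counts in runs 1 to 4, which are 43.5%, 32.8%, 31.7% and 45.5%. The 2 runs of each time-point were further apart than the time-points, at 38.1% ± 7.56 (SD, n = 2) at 0 hours and 38.6% ± 9.78 (SD, n = 2) at 24 hours. The difference of 0.49 percentage points was within this spread, and its sign changed with the processing, from -6.43 without run 4 to 7.41 without run 3.

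By their means, both sides held a larger part of all counts at 24 hours. Anti-apoptotic regions summed to 365 and 216 CPM at 0 hours and 318 and 680 at 24 hours, so the time-points overlapped. Pro-apoptotic regions summed to 475 and 443 at 0 hours and 685 and 813 at 24 hours, without overlap. Ratios of the means were 1.72 for anti-apoptotic and 1.63 for pro-apoptotic regions. On the log2 scale the anti-apoptotic ratio was 0.78, and it was 0.13 without run 4. BH3-only regions had 329, 356, 473 and 673 CPM in runs 1 to 4, and effector regions 146, 86.4, 212 and 140. The effector sums, of 24, 8, 26 and 20 counts, include 1, 0, 7 and 7 counts of Bax. The higher values of the Bax regions at 24 hours were set by their presence in the matrix. Counted per cell, the member regions held 2.88, 1.30, 2.05 and 2.96 counts, and run 1 was then close to run 4. Pro-apoptotic regions held 1.62, 0.872, 1.4 and 1.61 counts per cell, so that on this scale their time-points overlapped.

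Near starts the means of both sides were higher at 24 hours, while beyond 1 kb that of the anti-apoptotic regions was lower and that of the pro-apoptotic regions slightly higher. Anti-apoptotic regions within 1 kb went from 189 and 108 CPM to 220 and 638, and those beyond 1 kb from 176 and 108 to 97.9 and 42.1. The near-start anti-apoptotic signal came from a pair of regions, since Bcl2l1 +339 held 51 and Mcl1 -95 held 36 of its 91 counts in run 4. The other 3, Bcl2 -212, Mcl1 +644 and Mcl1 +791, had log2 changes of -0.43, -2.32 and -0.30 on 9 counts or fewer each. Pro-apoptotic regions within 1 kb went from 140 and 173 to 310 and 470, and those beyond 1 kb from 335 and 270 to 375 and 344. Of the near-start pro-apoptotic counts, Bcl2l11 -235 held 9 of 38 in run 3 and 40 of 67 in run 4. The Bax regions, which do not count as support, held 7 in each of these runs. Bid -70, Bmf -42 and Bak1 +373 had log2 changes of 0.52, 0.73 and 0.45, and Bbc3 +282 had -1.71. The near-start ratios of the means were 2.89 for anti-apoptotic and 2.49 for pro-apoptotic regions, where all regions within 1 kb had a ratio of 1.25. Beyond 1 kb the ratios were 0.492 and 1.19, where all such regions had a ratio of 0.75. In the pro-apoptotic regions beyond 1 kb both 24-hour runs were above both 0-hour runs, though run 4 exceeded run 1 by less than the 0-hour runs differed.

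**Figure D4:**
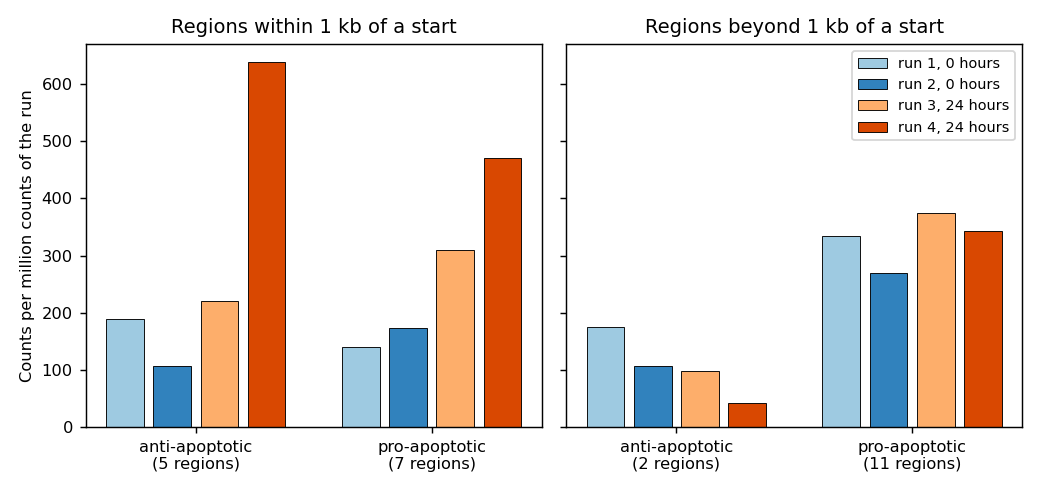
Summed counts of member regions, as CPM (vertical axis), by role and C1 run, for regions within 1 kb of a start (left) and beyond it (right). Near starts run 4 reaches 638 for anti-apoptotic and 470 for pro-apoptotic regions, and the 2 anti-apoptotic regions beyond 1 kb go from 176 and 108 at 0 hours to 97.9 and 42.1 at 24 hours.

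At the level of single cells, signal at both an anti- and a pro-apoptotic region was found in 22 of 48, 6 of 47, 16 of 60 and 28 of 72 cells of runs 1 to 4, or 45.8%, 12.8%, 26.7% and 38.9%. Signal at pro-apoptotic regions alone was found in 12.5%, 34.0%, 26.7% and 26.4% of cells, and at anti-apoptotic regions alone in 20.8%, 8.51%, 10.0% and 16.7%. Neither side was detected in 20.8%, 44.7%, 36.7% and 18.1%. Thinned to 837 counts, 26.9%, 12.7%, 22.0% and 37.1% of cells had an anti-apoptotic and 28.3%, 28.6%, 39.4% and 47.9% a pro-apoptotic count. The thinned pro-apoptotic shares separated the time-points, and the anti-apoptotic ones did not. Without thinning a pro-apoptotic count was found in 58.3%, 46.8%, 53.3% and 65.3% of cells, and the time-points overlapped.

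The regions Bcl2l1 +339, Mcl1 -95 and Bcl2l11 -235, the 3 near-start members detected in the most cells, were seen together in some cells. In run 4, 28 of 72 cells had 1 of the 3, 15 had 2 and 4 had all 3, so that 65.3% of its cells had at least 1. In runs 1 to 3 at least 1 was detected in 31.2%, 12.8% and 28.3% of cells and all 3 in none. Cells with at least 1 were deeper, with a median of 2090 counts in run 4 against 1260 in cells with none, and the part of depth in this was not tested.

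Over all 227 cells, after the log10 total of a cell was regressed out, the detection of Bcl2l1 +339 was most like that of regions nearest Rapgef6, Slc25a25 and Lrrc47, with Pearson r of 0.362, 0.340 and 0.332. For Bcl2l11 -235 the closest were regions nearest Cnksr3, Mga and Tle2, with r of 0.357, 0.346 and 0.346, and the Mga region was detected in 5 cells only. Among members, Bcl2l1 +339 and Bcl2l11 -235 were each other's closest, at r of 0.224. These are descriptions over cells that share runs and depth, and the highest values of all compared regions are high in part by selection.

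Genes outside the 10 were counted from lists of the same pathways. Of 15 other BCL2 family genes 8 had a region, and none passed the adjusted threshold. At an unadjusted p under 0.05, 1 was higher and 2 were lower, against 5.99% of all genes higher and 6.18% lower. Their median log2 change was 0.79, against 0.05 over all 9900 genes. Pmaip1, which encodes the BH3-only protein NOXA, was lower in both 24-hour runs, at 346, 276, 166 and 76.7 TMM-normalized CPM over 6 regions (log2 change -1.38, SE 0.46, edgeR adjusted p = 0.134). The other lower gene, Bcl2l14, was named after its values were seen, and its single region had 11, 3, 0 and 0 counts in runs 1 to 4 (edgeR adjusted p = 0.124). Bcl2l14 does not count as support, since its region was in the matrix only through 0-hour cells. Bcl2l13, a member found on the mitochondrial membrane, was higher in both, at 18.5, 44.2, 63.2 and 153 (log2 change 1.88, SE 0.80, edgeR adjusted p = 0.283). Bad and Bcl2l2, which encode a BH3-only protein and the anti-apoptotic BCL-W, were also higher in both 24-hour runs, with log2 changes of 1.14 (SE 0.84) and 1.12 (SE 0.75) that did not pass.

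Of 17 genes of the mitochondrial machinery downstream, 13 had a region, 2 were higher at an unadjusted p under 0.05, against 5.99% of all genes, and none was lower or passed the adjusted threshold. The median log2 change of the list was 0.75. Vdac3, a channel of the outer membrane, was at 30.9, 11, 158 and 83.7 TMM-normalized CPM (log2 change 2.34, SE 0.81, edgeR adjusted p = 0.155). Diablo, whose product is released from mitochondria and blocks inhibitors of caspases, was at 37.1, 44.2, 174 and 90.7 (log2 change 1.69, SE 0.71, edgeR adjusted p = 0.276). In both genes run 3 was the highest, unlike in Bcl2l1, Mcl1 and Bcl2l11. Aifm1, with a log2 change of 1.10 (SE 0.83), was higher in both 24-hour runs, and Casp9 (-0.55, SE 0.62) and Birc3 (-0.42, SE 0.62) were lower in both, none past the threshold.

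Of 8 death receptor genes 6 had a region and none passed. Casp8, whose product cuts BID, was lower in both 24-hour runs, at 346, 530, 276 and 90.7 TMM-normalized CPM over 6 regions (log2 change -1.25, SE 0.40, edgeR adjusted p = 0.124), the only gene of the list under an unadjusted p of 0.05, where 6.18% of all genes were lower. Fadd, the adaptor that recruits caspase 8, had a log2 change of 0.92 (SE 0.70) and was higher in both. Of 8 genes acting upstream of BH3-only genes 6 had a region and none was under an unadjusted p of 0.05. Foxo1, a transcription factor that binds forkhead sequences, and Mdm2, the ubiquitin ligase of p53, were higher in both 24-hour runs with log2 changes of 1.28 (SE 0.90) and 1.12 (SE 0.72). The list medians were -0.24 for death receptor genes and 0.23 for upstream genes.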

How the data were processed

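Single-cell ATAC-seq was analysed from 1 deposited matrix of 20103 regions by 227 cells, with runs and time-points from the labels; the 6 bulk samples were not used here. The authors aligned the libraries to the mm10 genome (Bowtie2), dropped duplicates (Picard), took HOMER peaks of the bulk samples and deposited whole-number counts of each cell in those peaks, without normalization. No value is above 2, and the handling of higher values is not given in the sources; such a limit would reduce differences at strongly open regions. The study inspected each capture site, and no doublet caller was run.

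Counts were summed per run, since cells that share a run do not count as replicates. All regions, and the sums per gene, were fitted by edgeR 4.0.16 under R 4.3.3 (quasi-likelihood test, TMM, Benjamini-Hochberg, threshold 0.05). DESeq2 1.42.0 was an alternative. Shares of cells have 95% Clopper-Pearson intervals (SciPy 1.17.1), and a share of 0 has a limit of 3 counts of the total. Genome copies were searched with BLAST 2.17.0. The 10 genes, the lists and the tests were chosen with earlier results of these data known. All member regions are named, and of the other lists up to 3 genes in each direction with the largest change, among those with at least 20 counts whose time-points did not overlap. Alternatives were other normalizations, filters, assignments, detected or not detected values, thinned cells, a replicate block and each run left out. An item of the marker lists is not reported here.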

Additional observations from a re-analysis of the deposited data

How the results depend on the processing

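No member region and no member gene passed the adjusted threshold under any of the settings run except without run 3. With each run left out in turn, the number of member regions called ranged from 0 to 3 and of member genes from 0 to 1. Without run 3 the calls rose over the whole matrix, to 3.96% of all regions and 5.34% of all genes, from 0.0547% and 0.525%. With the first and the second run of each time-point as a replicate block, 0 member regions and 0 member genes were called. The run numbers give an order only, and the deviations of first runs from the means of their time-points had a Pearson r of -0.0109 between time-points over the regions, which do not count as replicates. With each run left out, the summed Mcl1 change ranged from -0.35 (without run 4) to 1.52.

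The log2 change of the summed member signal, in CPM, was 0.74, and it was 1.43 with only regions within 1 kb of the start and 0.26 as counts per cell. For BH3-only regions it was 0.74, and 1.28 and 0.33 under the same alternatives. For effector regions it was 0.60, against 1.46 within 1 kb and 1.36 with the nearest start taken over all protein-coding transcripts, where the causes were not tested. Scaled by cell numbers, the median log2 change of all regions was -0.51 against -0.06, and Bcl2l1 +339, Bcl2l11 -235 and Mcl1 -95 were at 1.75, 2.24 and 1.26. In the fit of thinned cells Bcl2l1 +339, Mcl1 -95 and Bcl2l1 +37005 were at 1.68, 2.45 and -0.88, with edgeR adjusted p of 0.732, 0.711 and 0.863. Bcl2l11 -235 then had 0, 0, 5 and 17 counts in runs 1 to 4, and its fitted change of 6.35 (edgeR adjusted p = 0.699) depends on the prior count. The number of member regions without overlap between the time-points was 9, with 4 higher and 5 lower at 24 hours. The limit given above for regions that entered the matrix through 1 time-point applies to these counts too. With TMM-normalized CPM in place of shares, 7 were higher and 5 lower at 24 hours, against 19.3% and 25.7% of all regions. Where detection in at least 10% of cells was required, 3 of 5 did not overlap, 2 higher and 1 lower, against 11.7% and 23.7% of all such regions. Of the other alternative values, 72 for the main results and 95 for single regions and genes were taken as unchanged. For single regions and genes this meant the same direction and the same side of the threshold. For the main results it meant a move by less than the spread between runs, or again no member called. Counts of regions were taken as unchanged within a fixed fold of the main count. With 2 runs per time-point and 5 to 51 cells per member region, depth and the spread between runs limit each comparison.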
